A study of Mus musculus with 6 samples.

Results

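A set of 10 genes of the actin cytoskeleton was followed in 6 mRNA-seq libraries of the mouse mammary carcinoma cell line Mvt1. The rule takes the genes by name: 4 known for contractile smooth muscle (Acta2, Actg2, Tagln and Myl9), 4 general cytoskeletal genes (Actb, Actg1, Tagln2 and Cnn2), and Tpm1 and Tpm2, which make both kinds of product. Reads were found under 9 of the 10 names, among 14766 gene annotations in all, and no read carried the name Myl9. The cells, of strain FVB/N, were stained for the surface protein CD24 and sorted into a CD24- and a CD24+ group, and both were grown in the same serum-containing medium. RNA came from 3 plates of each group, so the replicates are plates of 1 cell line and the p-values measure the spread between plates. No independent sorts are described, and differences tied to CD24 cannot be told apart from other differences between the sorted groups. Each library held 9046025 to 25692147 mapped reads of 47 nt, of which 71.8% to 74.4% had a gene name, and the shallowest library was CD24+ replicate 1. The sorted marker, Cd24a, was at 10.2 ± 2.79 CPM in CD24- libraries and 77.2 ± 7.31 CPM in CD24+ libraries (SD, n = 3 each). CPM here is reads of a gene per 1000000 gene reads of the library, after TMM scaling.

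Actin filaments are built from a small family of nearly identical proteins. Beta actin (Actb) and cytoplasmic gamma actin (Actg1) are made by nearly every cell, while smooth muscle alpha actin (Acta2) and smooth muscle gamma actin (Actg2) are made by contractile cells, including the myoepithelial cells of the mammary gland and activated fibroblasts. Tropomyosins lie along the filament, calponins and transgelins bind its side, and the regulatory light chain Myl9 switches on myosin II. Many of these genes are transcribed by serum response factor (SRF), which binds a short DNA element called the CArG box, together with its actin-sensing partners, the MRTF proteins.

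The 9 names with reads took 0.789% to 0.876% of the gene reads in CD24- libraries and 0.879% to 0.993% in CD24+ libraries. Most of these reads were named Actb (248225) or Actg1 (274368), and Tpm1 came next with 43973. Of the 8 genes that had enough reads for the test, Acta2, Cnn2 and Tpm1 were higher in CD24+ libraries and Tagln2 was lower. Actb, Actg1, Tagln and Tpm2 did not pass (edgeR quasi-likelihood test, adjusted p below 0.05). Across all 11125 genes tested, 46.1% passed, 23.8% as higher and 22.3% as lower in CD24+ libraries, so 4 of 8 is close to the background. Of the 2 tested contractile genes Acta2 rose, and the reads named Tagln, most of which match another gene too or no Tagln transcript, did not pass. Among the 4 general genes 1 rose, 1 fell and 2 did not pass. The median log2 fold change of the 8 genes was 0.24, against 0.02 for all genes tested, whose middle 50% lay between -0.27 and 0.32.

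**Figure D1:**
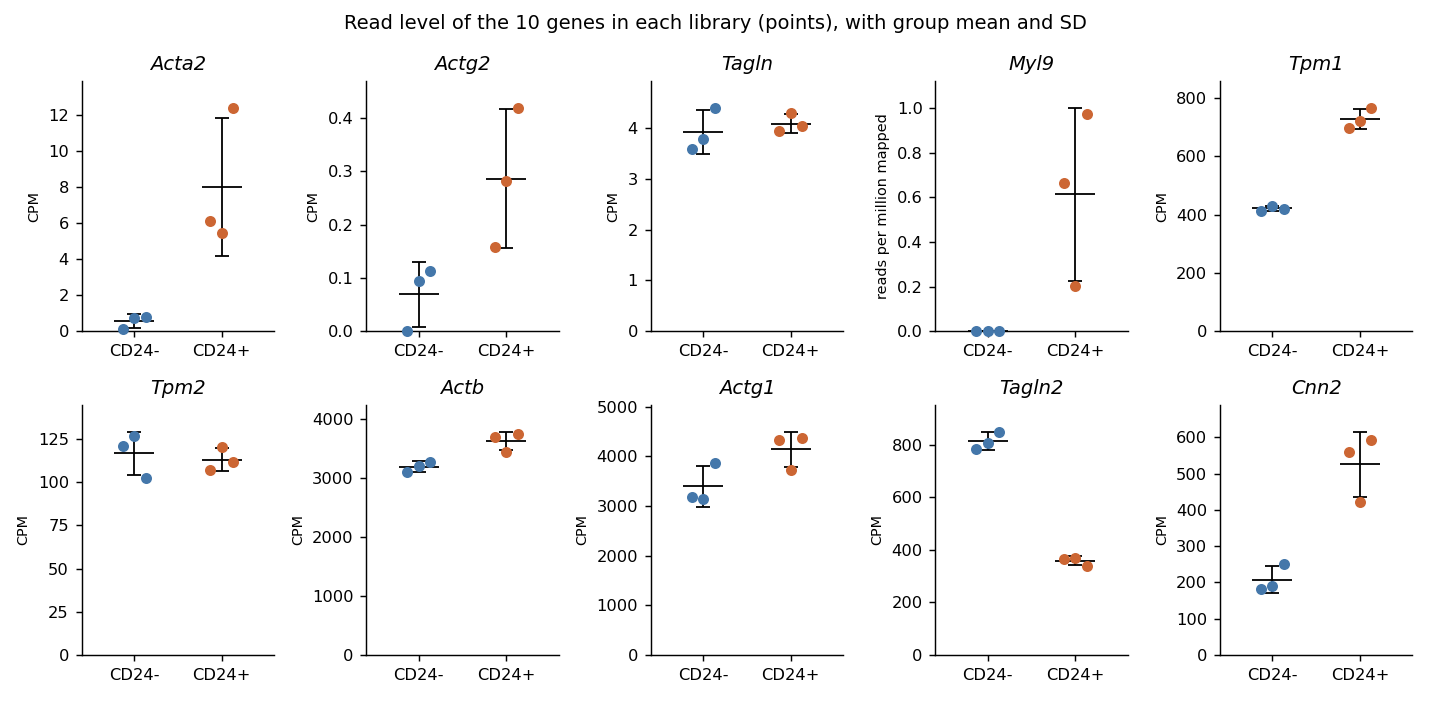
Level of each gene in every library, 3 points per group, with the group mean and SD as black bars and a vertical axis that starts at 0. The axis is CPM, except for Myl9, where it is reads matching its transcripts per 1000000 mapped reads. Acta2, Tpm1 and Cnn2 sit higher and Tagln2 lower in the 3 CD24+ libraries, with no overlap, while Tagln, Tpm2 and Actg1 overlap. Actb, Actg2 and Myl9 do not overlap either. Of the 8 tested genes 5 do not overlap, against 57.3% of all genes tested.

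**Figure D2:**
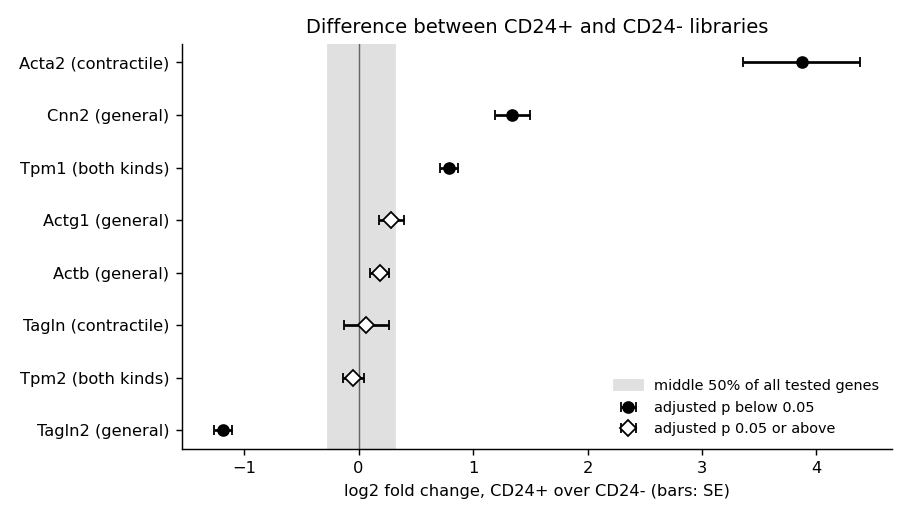
Fitted log2 fold change of the 8 tested genes with its standard error, CD24+ over CD24-. Filled circles passed the test and open diamonds did not, and the grey band holds the middle 50% of all tested genes. Acta2, at 3.87, and Tagln2, at -1.18, lie at the ends.

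Acta2, smooth muscle alpha actin, differed most of the 8. The gene lies at chr19:34241090-34255590 on the minus strand of GRCm38. It had 1, 8 and 7 reads in CD24- replicates 1, 2 and 3 and 39, 97 and 237 reads in CD24+ replicates 1, 2 and 3. In CPM these were 0.105, 0.759 and 0.789 against 6.14, 5.48 and 12.4, so the groups did not overlap, which was true of 57.3% of all genes tested. CD24+ replicate 3 was about as far above the other CD24+ libraries as they were above 0. The log2 fold change was 3.87 (SE 0.51, edgeR adjusted p = 0.000157). Even in CD24+ libraries the level was low: 3.94 CPM per kilobase of transcript, against 1890 for Actb.

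Most Acta2 reads of the CD24- libraries came from 1 coding exon. This exon is found at 34243317 to 34243498 on the minus strand of chromosome 19 (GRCm38), and stretches of it are identical to Actg1. Of the reads named Acta2, 0, 6 and 6 lay in it in CD24- replicates 1, 2 and 3, and 7, 17 and 31 in CD24+ replicates 1, 2 and 3. Elsewhere in Acta2 transcripts the reads were 0, 2 and 1 against 31, 76 and 203. Over each group these were 3 reads against 310, or 68.4-fold more per gene read in CD24+ libraries (95% exact interval 23.2 to 333.4, counting error only). The ratio was 42.2 without CD24+ replicate 3, which held 203 of the 310 reads, and 130.5 without CD24- replicate 2, which held 2 of the 3. Inside the exon the ratio was 3.03 (1.61 to 6.22). This split was made after the values were seen.

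**Figure D3:**
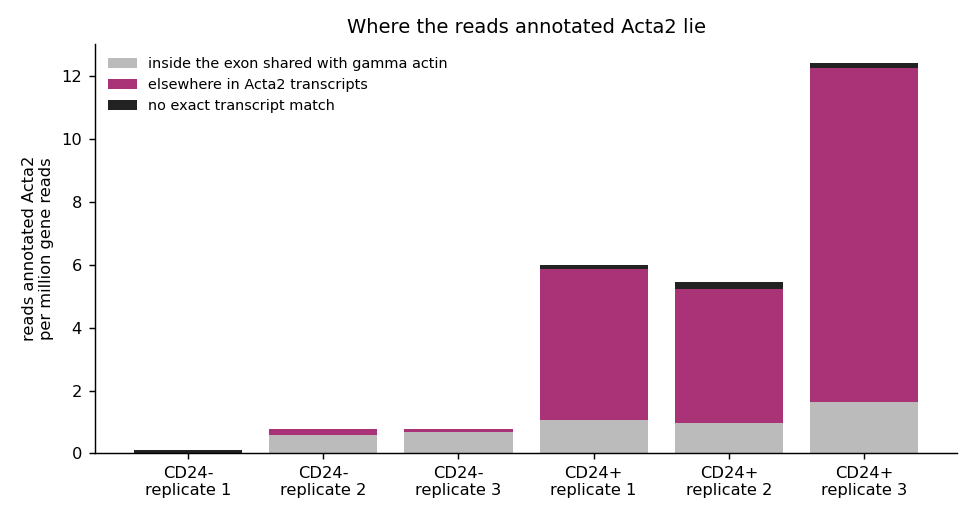
Reads named Acta2 per 1000000 gene reads in each library, stacked by where they lie: the exon that shares stretches with gamma actin, the rest of the Acta2 transcripts, or no exact transcript match. The rest of the transcripts holds 0, 2 and 1 reads in the CD24- libraries and 31, 76 and 203 in the CD24+ libraries.

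The shared stretches show how close the actins are. The first sequence below was read 1623 times under the name Actg1 and is exactly the same in Acta2, at chr19:34243348-34243394 of GRCm38, minus strand. The second, at chr19:34243341-34243387, was the sequence read most often in this exon under the name Acta2, 15 times. The third is the closest stretch of an Actg1 transcript, and capitals mark the 1 base at which these differ.
Acta2 and Actg1 shared: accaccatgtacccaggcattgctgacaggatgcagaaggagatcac
Acta2: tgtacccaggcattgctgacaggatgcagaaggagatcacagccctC
Actg1: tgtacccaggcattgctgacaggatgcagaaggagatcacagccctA
In all, 4153 reads with another name or none matched an Acta2 transcript exactly, 2690 of them named Actg1 and lying in this exon. Acta2 reads in the exon can therefore lie 1 base away from a sequence of an abundant gene. The part of sequencing errors in them was not tested.

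Actg2, smooth muscle gamma actin, had 0, 1 and 1 reads in CD24- libraries and 1, 5 and 8 in CD24+ libraries, too few for the test. All 16 matched its transcripts alone. It lies at chr6:83512905-83536265 on the minus strand of GRCm38. Its CPM did not exceed 0.113 in any CD24- library and was 0.157 to 0.419 in CD24+ libraries.

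Tagln is transgelin, an early smooth muscle protein. The gene lies at chr9:45929619-45936058 on the minus strand of GRCm38. The reads under its name were at 3.58, 3.79 and 4.40 CPM in CD24- libraries and 3.94, 4.29 and 4.04 CPM in CD24+ libraries, and the groups overlapped. The log2 fold change was 0.07 (SE 0.20, edgeR adjusted p = 0.793). The 291 reads under this name do not measure Tagln alone. Only 35 of them (12.0%) matched a Tagln transcript and no other gene, 131 matched both Tagln and Gm48529, an antisense gene on the opposite strand, and 78 matched Gm48529 only. The library kit is not stated to keep strand, so these cannot be told apart. The first exon of Tagln, 225 bases at 45935834 to 45936058 on chromosome 9 (GRCm38), had 0 reads in all 6 libraries, while its last exon, which overlaps Gm48529, had 112.

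Myl9, the myosin regulatory light chain of smooth muscle, had no annotation in the files. It lies at chr2:156775420-156781658 on the plus strand of GRCm38. Reads without any name were therefore searched for its transcripts after the other values had been seen. They held 0 matching reads in each of the 3 CD24- libraries and 6, 5 and 25 in CD24+ replicates 1, 2 and 3. The CD24+ libraries thus had 0.663, 0.204 and 0.973 reads per 1000000 mapped reads. A count of 0, taken as up to 3 reads, allows up to 0.0767 reads per 1000000 mapped reads over the 3 CD24- libraries together. The level of 0.608 over the CD24+ libraries was 7.92 times this limit. That figure leaves out the counting error of the CD24+ reads and the spread between plates, so it is not a lower bound. CD24+ replicate 3 held 25 of the 36 reads, and without it the level was 0.328, or 4.27 times the same limit. For 1 CD24- library alone a count of 0 allows 0.211 to 0.248, which is above the 0.204 of CD24+ replicate 2. An exact permutation test of 3 against 3 libraries (two-sided) gave p = 0.1, the smallest it can give.

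Tpm1, alpha tropomyosin, is transcribed from a pair of start sites. The gene lies at chr9:67022590-67049406 on the minus strand of GRCm38. Its upstream start gives long products, including the muscle forms, and the internal one gives short products of non-muscle cells. Over the whole gene the CD24- libraries had 413, 431 and 420 CPM and the CD24+ libraries 698, 720 and 766 CPM, with no overlap. The log2 fold change was 0.79 (SE 0.08, edgeR adjusted p = 1.68e-05). It fell to 0.25 (adjusted p = 0.0861) with each distinct sequence counted once and to 0.24 (limma adjusted p = 0.0582) with the median coverage of 1 transcript, quantile normalized and tested with limma, so the call was lost under both.

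The difference was unequal along the gene. Exons that belong only to transcripts of the upstream start were at 3.90, 5.31 and 6.65 CPM in CD24- libraries and at 54.0, 63.1 and 64.8 CPM in CD24+ libraries. The internal first exon was at 26.5, 28.5 and 25.4 CPM and at 30.2, 30.1 and 31.7 CPM. The means thus stood 11.5-fold apart in the upstream exons and 1.14-fold apart in the internal first exon, and neither set overlapped. With the gene split this way, after its values were seen, the log2 fold change was 3.53 for the upstream exons (SE 0.16, edgeR adjusted p = 1.28e-07) and 0.19 for the internal first exon (SE 0.10, adjusted p = 0.127). Upstream reads made up 16.4% ± 4.04 of upstream plus internal reads in CD24- libraries and 66.3% ± 1.92 in CD24+ libraries (SD, n = 3 each). This sets upstream exons of 388, 126 and 126 bases against an internal exon of 385 bases, without correction for length, so it is not the share of starts. The first exons of the upstream and internal starts had 21, 31 and 37 against 252, 301 and 225 reads in CD24- libraries. In CD24+ libraries they had 162, 578 and 652 against 192, 533 and 605 reads. The log2 difference of the ratio of upstream to internal reads was 3.34, with an exact permutation p = 0.1, the smallest that 3 against 3 libraries allow.

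**Figure D4:**
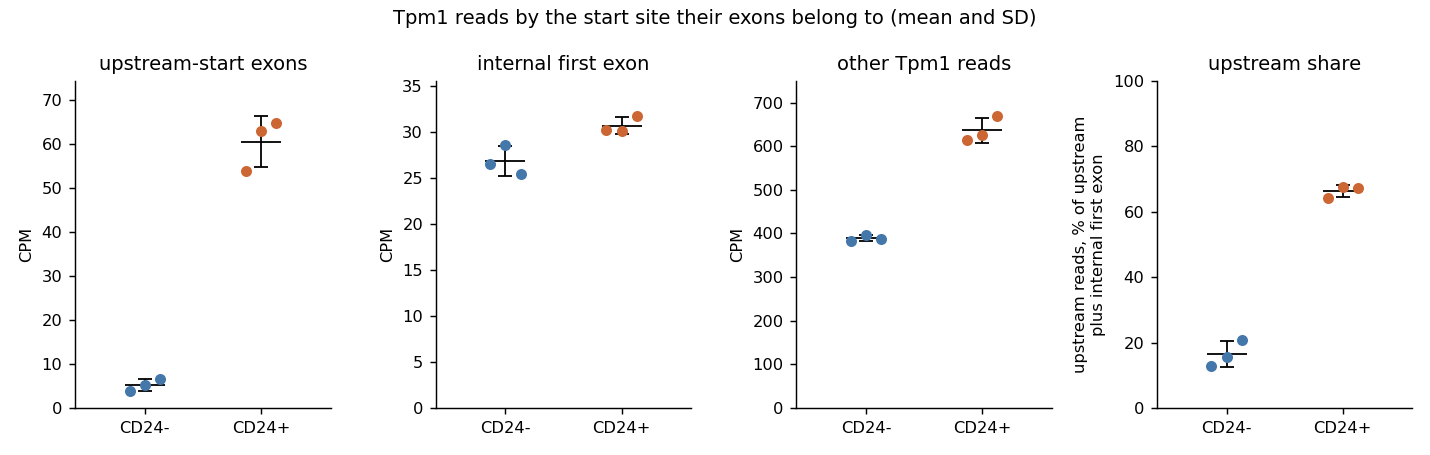
Tpm1 reads split by start site: CPM of the exons of the upstream start, of the internal first exon and of all other Tpm1 reads, and the upstream share in percent, with 3 libraries per group, mean and SD. The upstream exons average 5.29 CPM in CD24- and 60.6 CPM in CD24+ libraries, and the internal first exon 26.8 and 30.7 CPM. Neither the CPM nor the share is corrected for exon length.

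Transcripts of the upstream start carry either exon 2a, the smooth muscle choice, or exon 2b, the choice of striated muscle and many non-muscle cells. Both encode the same stretch of the protein and are shown here because their sequences differ. They lie on the minus strand at chr9:67048124-67048249 and chr9:67047786-67047911 of GRCm38, have 126 bases each, and differ at the 66 bases in capitals.
Tpm1 exon 2a: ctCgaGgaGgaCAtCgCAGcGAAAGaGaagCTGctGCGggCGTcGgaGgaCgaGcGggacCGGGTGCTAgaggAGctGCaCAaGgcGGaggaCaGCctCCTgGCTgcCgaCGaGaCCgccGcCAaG
Tpm1 exon 2b: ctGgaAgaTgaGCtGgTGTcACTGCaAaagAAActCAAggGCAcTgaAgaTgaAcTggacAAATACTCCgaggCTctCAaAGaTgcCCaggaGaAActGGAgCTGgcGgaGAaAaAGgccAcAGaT
Exon 2b had 16, 25 and 22 reads in CD24- libraries and 181, 537 and 581 in CD24+ libraries. Exon 2a had 0 reads in every CD24- library and 0, 1 and 3 in the CD24+ libraries. The first exon of the upstream start, at 67049019 to 67049406, had 21, 31 and 37 reads against 162, 578 and 652. Few reads in an exon need not mean that it is unused. The exon at 67032794 to 67032864, of 71 bases, is in all 16 coding transcripts of Tpm1 and had 0 reads in all 6 libraries, beside 714 and 1350 reads in shared exons of 63 and 70 bases. Whether exon 2a reads were lost in the same way was not tested.

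Tpm2, beta tropomyosin, had 121, 127 and 103 CPM in CD24- libraries and 107, 121 and 112 CPM in CD24+ libraries, with a log2 fold change of -0.04 (SE 0.10, edgeR adjusted p = 0.727). Its groups overlapped. It lies at chr4:43514711-43523765 on the minus strand of GRCm38. A pair of alternative internal exons of the gene, at 43518644 to 43518719 and 43519003 to 43519078 on chromosome 4 (GRCm38), had 28, 36 and 23 against 32, 36 and 22 reads in CD24- libraries. In CD24+ libraries they had 16, 53 and 51 against 16, 56 and 63 reads, so both were in use in all 6.

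Actb, beta actin, lies at chr5:142903115-142906754 on the minus strand of GRCm38. It had 3097, 3197 and 3278 CPM in CD24- libraries and 3688, 3447 and 3751 CPM in CD24+ libraries. The groups did not overlap, but the log2 fold change of 0.19 did not pass (SE 0.08, edgeR adjusted p = 0.0905). Actg1, cytoplasmic gamma actin, had 3184, 3136 and 3864 CPM against 4335, 3727 and 4365 CPM, which overlapped, with a log2 fold change of 0.29 (SE 0.11, edgeR adjusted p = 0.0544). Actg1 lies at chr11:120345690-120348542 on the minus strand of GRCm38. That call depended on the method, since DESeq2 gave an adjusted p of 0.0338. It passed also without CD24- replicate 3 (0.0129) or without CD24+ replicate 2 (0.0271). Both genes have many processed copies in the genome. Of the reads named Actb, 95.7% matched no other gene, but a further 35123 reads that match Actb carried the name Lrrc58. Of the reads named Actg1, 39.8% matched Actg1 alone.

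Tagln2, the transgelin of non-muscle cells, was the only one of the 8 tested genes that fell. Its locus is chr1:172500047-172507380 on the plus strand of GRCm38. It was at 785, 806 and 851 CPM in CD24- libraries and at 366, 370 and 339 CPM in CD24+ libraries. The log2 fold change was -1.18 (SE 0.08, edgeR adjusted p = 1.29e-06), or 2.27-fold lower, and -0.54 (adjusted p = 0.0316) with each distinct sequence counted once. Of its reads, 99.0% matched its transcripts alone. Cnn2, the calponin of non-muscle cells, moved the other way. Its locus is chr10:79988584-79996062 on the plus strand of GRCm38. It was at 183, 189 and 250 CPM in CD24- libraries and at 561, 423 and 594 CPM in CD24+ libraries, with no overlap, and its log2 fold change was 1.34 (SE 0.15, edgeR adjusted p = 4.9e-05). With each distinct sequence counted once it was 0.54 (adjusted p = 0.038).

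Per kilobase of transcript, the order of levels in CD24- libraries was Actg1 (1739), Actb (1662), Tagln2 (513), Tpm1 (146), Cnn2 (84.2), Tpm2 (53.7), Tagln (2.46), Acta2 (0.271) and Actg2 (0.0519 CPM per kilobase). In CD24+ libraries it was Actg1 (2122), Actb (1890), Tpm1 (252), Tagln2 (226), Cnn2 (214), Tpm2 (52.0), Acta2 (3.94), Tagln (2.56) and Actg2 (0.215 CPM per kilobase). In both groups the libraries of Actg1 and Actb overlapped. In CD24+ libraries those of Tagln2 (214 to 233) and Cnn2 (172 to 241) overlapped as well. Tagln2 therefore stood above Tpm1 in CD24- libraries and below it in CD24+ libraries. The Tagln values count all 291 reads of that name, so its place in either order is uncertain. Reads matching only Tagln were 4, 8 and 5 in CD24- libraries and 3, 11 and 12 in CD24+ libraries. Those matching only Acta2 were 0, 8 and 7 in CD24- libraries and 38, 93 and 235 in CD24+ libraries.

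Within a library, contractile reads were also set against those of the general isoform, which needs no scaling between libraries. Acta2 had 0.0168, 0.120 and 0.110 reads per 1000 Actb plus Actg1 reads in CD24- libraries and 0.765, 0.764 and 1.53 in CD24+ libraries. The log2 difference was 3.74. It was 2.73 with 5 in place of 0.5 added to both counts, 2.98 without CD24- replicate 1, the library with 1 Acta2 read, and 4.39 with each distinct sequence counted once. Tagln had 4.56, 4.71 and 5.17 reads per 1000 Tagln2 reads in CD24- libraries and 10.8, 11.6 and 11.9 in CD24+ libraries, a log2 difference of 1.25. This difference was 0.73 with each distinct sequence counted once. Of this pair Tagln2 fell and the reads named Tagln did not pass. Both ratios gave an exact permutation p of 0.1 (two-sided, 2 ratios tested), the smallest possible.

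Promoter sequence was at hand for 7 of the 10 genes (RefSeq, GRCm38.p6, 250 bases before and 50 after the start). A full CArG box, a pair of C, 6 bases of A or T and a pair of G, which reads the same on both strands, was in 3 of them. It was in 1.63% of all 32851 promoter windows of that length. The 3 are shown with the box in capitals, at chr2:156775273-156775342 on the plus strand for Myl9, chr10:79988514-79988583 on the plus strand for Cnn2 and chr11:120348546-120348615 on the minus strand for Actg1.
Myl9 promoter: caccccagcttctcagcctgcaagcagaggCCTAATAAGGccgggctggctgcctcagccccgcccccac
Cnn2 promoter: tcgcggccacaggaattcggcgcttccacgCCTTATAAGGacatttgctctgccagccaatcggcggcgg
Actg1 promoter: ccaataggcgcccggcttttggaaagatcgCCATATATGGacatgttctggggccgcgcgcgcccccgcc
The box begins 161, 56 and 90 bases before the start of Myl9, Cnn2 and Actg1. The windows of Acta2, Tagln2, Tpm1 and Tpm2 hold no such letters, which says nothing of boxes with another base in them or of elements outside the windows.

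Other genes of contraction moved in both directions. The counts of the gene groups are to be read against 23.8% of all tested genes higher and 22.3% lower in CD24+ libraries. Of 16 other smooth muscle genes, 6 could be tested, of which 2 rose and 2 fell (median log2 fold change -0.0028). Itga8, an integrin chain, rose from 14.2 ± 4.57 to 55.2 ± 10.3 CPM (log2 fold change 1.95) and Cald1, caldesmon, from 608 ± 21.1 to 729 ± 54.3 CPM (0.26). Cnn1 and Myh11, late markers of smooth muscle, had 3 and 6 reads over all libraries, and no read was named Synpo2 or Kcnmb1. Of the other muscle actins, Acta1 had 9 reads, all in CD24+ libraries, and no read was named Actc1. Here and below, the lack of a name need not mean a lack of reads, since Myl9 had reads without a name.

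SRF, its partners and other genes linked to it, not all of them regulators, formed the next list. Of its 10 tested genes 4 rose and 3 fell, against 23.8% and 22.3% of all genes tested. Csrp1, a LIM protein of smooth muscle, rose from 94.8 ± 14.4 to 261 ± 59.1 CPM (log2 fold change 1.46), and Elk4, an SRF partner of another family, fell from 52.5 ± 5.62 to 32.9 ± 5.29 CPM (-0.65). Lima1, which had the most reads, was at 255.5 ± 18.7 and 274 ± 25.7 CPM and did not pass. No read was named Myocd, the smooth muscle partner of SRF, or Filip1l. Srf and the MRTF genes Mkl1 and Mkl2 were named after their values were seen. Srf was higher in CD24+ libraries (log2 fold change 0.34, edgeR adjusted p = 0.0315), although its groups overlapped. Mkl1, at 94.6 ± 5.61 and 97.9 ± 5.16 CPM, did not pass, and Mkl2 fell from 29.3 ± 1.79 to 20.8 ± 3.95 CPM (-0.47, edgeR adjusted p = 0.0181).

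Non-muscle myosin II had 3 of 6 genes higher and 0 lower. Myh9, the heavy chain with the most reads, rose from 1169 ± 92.5 to 1496 ± 201 CPM (log2 fold change 0.36), Myh14 rose from 1.54 ± 0.232 to 7.38 ± 2.83 CPM (2.27), and Myl12b, at 313 ± 13.7 and 279 ± 25.2 CPM, did not pass. Of the remaining tropomyosins, calponins and transgelins, 2 of 3 tested genes rose. Tpm4 had the larger change, from 448 ± 42.7 to 625 ± 54.4 CPM (0.48), while Tpm3 was at 709 ± 69.9 and 697 ± 38.2 CPM and did not pass.

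Of the crosslinkers and adhesion adaptors, 9 of 25 tested genes rose and 5 fell, so 14 of 25 passed against 46.1% of all genes tested. Fscn1, fascin, which bundles filaments in cell protrusions, rose from 22.7 ± 1.23 to 280 ± 13.2 CPM (log2 fold change 3.63). Flna, filamin A, rose from 1535 ± 277 to 2416 ± 177 CPM (0.65), while Flnc, the muscle filamin, fell from 789 ± 135 to 327 ± 17.4 CPM (-1.27). No read was named Tes or Tns1. In the Arp2/3 complex and the other nucleators, which start new filaments, 0 of 19 genes rose and 7 fell, against 23.8% and 22.3% of all genes tested, with a median log2 fold change of -0.14. Diap1, a formin, fell from 162 ± 2.24 to 107 ± 7.48 CPM (-0.59), and Arpc5l, at 60.5 ± 3.43 and 69.6 ± 8.27 CPM, and Cttn, at 483 ± 12.3 and 509 ± 15.8 CPM, did not pass.

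Filament turnover had 6 of 21 tested genes higher and 4 lower. Pfn2, a profilin, rose from 1.03 ± 0.119 to 3.80 ± 0.235 CPM (log2 fold change 1.88), Capg, a capping protein, fell from 738 ± 12.0 to 522 ± 73.9 CPM (-0.50), and Cfl1, cofilin, at 1246 ± 73.0 and 1337 ± 30.1 CPM, did not pass.

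Markers of other cell types moved beside Acta2. In these bulk samples, fewer cells of a type and less RNA per cell cannot be told apart. Of 7 pericyte and vascular smooth muscle markers, 3 were tested and all 3 were higher in CD24+ libraries, and the summed level went from between 4.29 and 6.53 to between 54.6 and 83.3 CPM. Most of it was Pdgfrb, a growth factor receptor, at 4.82 ± 1.24 and 66.7 ± 14.7 CPM. Notch3, with the largest change, went from 0.0727 ± 0.0631 to 1.18 ± 0.0793 CPM and Mcam, with the smallest, from 0.586 ± 0.144 to 2.48 ± 0.922 CPM, while Rgs5 and Cspg4 had 1 read each. All 4 tested fibroblast markers of 6 were higher too, with a summed level of 5.75 to 10.4 CPM against 14.9 to 20.3 CPM. Dcn, decorin, with the largest change, went from 0.0667 ± 0.0580 to 2.05 ± 1.04 CPM and Pdgfra, with the smallest, from 6.24 ± 2.14 to 11.3 ± 2.64 CPM, and no read was named Lum or Thy1. The part of such cells in the Acta2 result was not tested.

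None of the 7 basal or myoepithelial markers had enough reads for the test, and their summed level was 0.474 to 0.677 CPM in CD24- and 1.10 to 1.78 CPM in CD24+ libraries. Krt5, Krt14 and Krt17 had 1, 3 and 2 reads in all, and Trp63 had 54. Most of the CD24+ sum was Trp63, at 0.0948 ± 0.164 CPM in CD24- and 1.16 ± 0.233 CPM in CD24+ libraries. Oxtr, at 0.284 ± 0.145 and 0.0551 ± 0.0565 CPM, and Krt17 went the other way. Of 6 luminal markers, all 3 tested were lower in CD24+ libraries, Krt8 from 1230 ± 76.1 to 597 ± 60.8 CPM and Krt19 from 12.1 ± 0.743 to 3.22 ± 0.486 CPM, with a summed level of 1848 to 2042 against 759 to 903 CPM. The labels call the cells epithelial, and the epithelial adhesion genes Epcam and Cdh1 had 6 and 2 reads. Endothelial markers summed to 2.25 to 4.08 CPM and 0.681 to 1.89 CPM, with Cdh5 lower in CD24+ libraries (log2 fold change -3.23) and Tek, with the most reads, at 1.05 ± 0.440 and 0.825 ± 0.289 CPM. Both tested leukocyte markers were lower, Cd68 from 64.6 ± 18.4 to 8.16 ± 1.25 CPM and Itgam from 3.84 ± 0.595 to 0.0175 ± 0.0303 CPM, with a summed level of 46.7 to 80.6 against 6.95 to 9.44 CPM. Ptprc, which marks all leukocytes, had 2 reads, and no read was named Cd3e or Emr1.

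The 3 members with the flattest levels were also set beside the 9205 tested genes whose log2 CPM averaged 3 or more. The measure was the root mean square difference of centred log2 CPM over the 6 libraries. Cpsf4 (0.023), Dpy19l4 (0.024) and Frmd4a (0.025) were nearest to Tagln, and Oxsm (0.031), Ahdc1 (0.032) and Slc17a5 (0.033) to Tpm2. Rassf1 (0.022), Adam9 (0.025) and Siae (0.027) were nearest to Actb. The Tagln profile rests on 25 to 77 reads per library, most of which did not match Tagln alone. The counting error of these distances was not estimated, so the genes nearest to Tagln are uncertain.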

How the data were processed

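Reads of 51 nt were trimmed by the authors by 2 nt at each end, identical 47-nt reads were collapsed, and each sequence was mapped by exact match and given 1 annotation (mm9, per the submitters' processing notes; the mapping tool and the source of annotations: not given in the sources used here). The authors deposited a raw read count per mapped sequence and library, with no normalization or pooling. Exact mapping leaves out most junction reads, and near-identical copies share reads.

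Here the deposited counts were summed per gene name. Reads without a gene name, 25.7% to 28.2% of a library, stayed out of totals and tests. Genes passing filterByExpr were tested over all 6 libraries with edgeR 4.0.16 in R 4.3.3 (quasi-likelihood F test after TMM scaling, p-values adjusted by Benjamini-Hochberg, threshold 0.05), and a standard error is the log2 fold change divided by the root of F. Reads were also matched exactly to GENCODE M21 transcripts (GRCm38), which gave exon positions and the transcript lengths (1 transcript per gene). No coordinate was converted between builds. Ratios within a library had 0.5 added to both counts and an exact permutation test (scipy 1.17.1).

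The 10 members, the gene lists and the tests were chosen with earlier results of these data known. Named genes are the members, Cd24a, from each list the tested genes with the largest and smallest fold change, the gene with most reads and those with no read, and the 3 genes nearest in profile to Tagln, Tpm2 and Actb. Untested genes of the lists that had reads, Srf, Mkl1 and Mkl2 fall outside this rule and were named after their values were seen. Some genes that the rule names, and 1 list, are not reported here. The alternatives were DESeq2 1.42.0, totals without TMM or without the members, other filters, each distinct sequence counted once, reads matching 1 gene, the study's median coverage with quantile normalization, log2 of the value plus 10 and limma 3.58.1, leaving out each library, other pseudocounts, and a block for the replicate number. Thinning to the shallowest library and the Tpm1 split were added after seeing the data. Tested on simulated data made for the comparison of CD24+ with CD24- libraries, 11020 genes of which 200 were changed, edgeR recovered 93% of 2-fold and 99% of 4-fold changes. The changed genes were drawn from those with a mean of at least 1 CPM, so these rates do not cover genes below that level. In the data 46.1% of genes passed, a larger share than was changed in the simulation. Libraries of a group differed by more than sampling noise (chi-square per degree of freedom 1.75 between CD24- replicates 1 and 2, and 9.69 to 15.9 for the other pairs, so CD24- replicate 3 lay farther from these than they lay from each other).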

Additional observations from a re-analysis of the deposited data

Results flagged for a closer look

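Myl9 was singled out because its reads lie in data that the comparison by gene name leaves out. Reads without a name held 36 matches to its transcripts in CD24+ libraries and 0 in CD24- libraries. The count is small, and 25 of the 36 came from CD24+ replicate 3. Groups of 3 libraries are too small for a check of outlying values.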

How the results depend on the processing

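Of 152 alternative values of the 8 fold changes and 2 ratios, 142 had an unchanged sign and call. For the ratios only the sign was compared, since their exact permutation p cannot fall below 0.1 and no call was possible. The setting that splits Tpm1 could hardly move the other genes. These values therefore add little to the count of 142. The number of genes called was 5130 and stayed within 1.5 times of that under 15 of 16 alternatives. It was 3251 with the estimate that joins median coverage, quantile normalization, an added constant and limma, and ranged from 4069 to 5358 with each library left out. Tpm1 lost its call with each distinct sequence counted once (log2 fold change 0.25) and with that joint estimate (0.24). Actg1 passed with DESeq2 (0.27) and with no filter beyond 1 read (0.29), and turned to -0.18 with each distinct sequence counted once, as Actb did to -0.25, both without a call. Tpm2 turned to 0.0050 with the joint estimate, also without a call. With each library left out, Actg1 ranged from 0.23 to 0.39 and Tpm2 from -0.13 to 0.016. The cause of these changes was not tested. Acta2, Cnn2, Tpm1 and Tagln2 kept their calls without any 1 library. Acta2 and Tagln had no value with the joint estimate and Tagln none with reads matching 1 gene. Without a filter, Actg2 could be tested (edgeR adjusted p = 0.104).

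The replicate numbers did not pair the libraries: the deviations of same-numbered libraries correlated at 0.0192, -0.30 and -0.34, and no library correlated best with its own number. With the replicate number as a block, the count of called genes was 4493, and all 8 tested members had the call of the fit without it.

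Depth limits the genes with few reads, since Actg2 and Myl9 rest on 16 and 36 reads and Acta2 on 16 reads in the CD24- libraries. Counting intervals cover counting error only.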
